A study of Homo sapiens with 24 samples.

Results

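The genes described here are 39 that carry out or restrain apoptosis, chosen by their function: the BCL2 family, the mitochondrial factors and the apoptosome, the caspases and their inhibitors, the death receptors with their adaptors, and the nuclease of DNA fragmentation. Earlier results of these data were known when these genes were chosen. Of the 39, 38 could be measured, among 18395 genes in all. *BCL2L2* was the exception, because its probe set carries several gene symbols. They were followed in HEK293T cells, a human embryonic kidney line, after knockdown or overexpression of *FMR4*, a long noncoding RNA transcribed antisense to *FMR1*. Expression was measured on 24 arrays, 3 for each of 8 conditions, and each array held 1 biological replicate pooled from 3 technical ones. For the knockdown the cells received FMR4 siRNA or CTRL siRNA, each at 40 nM with Lipofectamine RNAiMAX, and for the overexpression FMR4 pcDNA3.1 or CTRL pcDNA3.1, the empty vector, each at 0.5 μg with Lipofectamine 2000CD. RNA was taken at 6 or 24 h. All groups came from this 1 cell line and all were transfected, so each difference from a control is a difference between transfected cells. Whether the biological replicates were separate cultures is not stated, so p-values measure only the spread between these samples, part of which may be technical. *FMR4* itself has no probe set under its symbol, and its knockdown and overexpression were not read from these arrays.

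Apoptosis runs along an intrinsic and an extrinsic route. In the intrinsic route BH3-only proteins neutralize pro-survival BCL2 proteins or activate BAX and BAK, which permeabilize the outer mitochondrial membrane, and cytochrome c then assembles APAF1 and caspase-9 into the apoptosome. In the extrinsic route FAS and the TRAIL and TNF receptors recruit FADD or TRADD and caspase-8, a step that CFLAR restrains, and both routes end in executioner caspases and the nuclease DFFB. Most of this control acts on proteins, which arrays do not measure. HEK293T cells express the viral large T antigen, which binds p53, a transcription factor for several of these genes.

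All values are log2 expression, so a difference of 1 is a doubling, and genes whose adjusted p fell under 0.05 in a limma fit to all 24 arrays are called higher or lower. The number of arrays, 3 per condition, limits the precision. A level at which genes are mostly silent was taken from 429 olfactory receptor and keratin-associated genes, whose upper quartile lay at 6.00. By this measure 36 of the 38 genes lay above it in all 8 conditions. The other 2, *BCL2A1*, a pro-survival protein of blood cells, and *CASP10*, an initiator caspase, lay below it in every condition, with means of 5.67 and 5.39. The level does not establish expression, since 16 of 22 markers of other cell types also lay above it, beside 10 of 10 markers expected in HEK293T cells. The genes that varied most over the 24 arrays were *BCL2* (a span of 1.38 between the lowest and the highest array), *APAF1* (1.20), *BCL2L1* (1.09), *PMAIP1* (1.04) and *TNFRSF10B* (0.96). The steadiest were *XIAP* (0.27) and *BOK* (0.28).

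A single array stood apart before any comparison. Among the genes described here the median SD between replicates was 0.141 with FMR4 siRNA at 6 h (all genes, 0.12), against 0.0811 with CTRL siRNA at 6 h and 0.0566 to 0.0757 in the other 6 conditions. Replicate 3 of FMR4 siRNA at 6 h gave the highest or lowest value of the 6 siRNA arrays of that time in most of these genes. It lay above the other 5 for 14 of the 38 (36.8%, against 24.8% of all genes) and below them for 11 (28.9%, against 25.7%). Calls in this set that use the FMR4 siRNA arrays of 6 h are therefore given with and without it. Counts in the other gene lists below are given only with it. Each SE and p-value draws on the spread within all 8 conditions, so this array also enters those of comparisons that do not include it.

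With all arrays used, genes of this set differed from the matched control only after knockdown of *FMR4* for 24 h. There 4 of the 38 were called. *APAF1*, the scaffold of the apoptosome, fell 1.73-fold, and *CASP6*, an executioner caspase that also cleaves nuclear lamins, fell 1.20-fold. *PMAIP1*, the BH3-only protein NOXA that neutralizes MCL1, rose 1.32-fold, and *HTRA2*, a mitochondrial serine protease that antagonizes inhibitors of apoptosis once released, rose 1.15-fold. The 4 calls are 10.5% of these genes, against 5.89% of all genes (3.44% higher and 2.45% lower). The set as a whole did not shift: its median difference was 0.0074 (all genes, 0.0039), with 21 genes above 0 (51.7% of all genes were) and 17 below, and its median absolute difference was 0.0721 (all genes, 0.0737). In bulk cells, fewer cells expressing a gene and less RNA per cell cannot be told apart.

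*APAF1* gave 7.67, 7.79 and 7.34 with FMR4 siRNA at 24 h, against 8.42, 8.34 and 8.42 with CTRL siRNA. All 3 knockdown arrays lay below all 3 control arrays, and below every other array of the series. The difference was -0.79 (SE 0.097, 95% interval -0.99 to -0.59, adjusted p = 1e-05). It passed the threshold under all 14 alternative settings, with differences between -0.89 and -0.66. The plasmid arrays of 24 h read 8.54, 8.29 and 8.43 with FMR4 pcDNA3.1 and 8.40, 8.49 and 8.47 with CTRL pcDNA3.1, so that the control siRNA and both plasmids gave overlapping values and only the FMR4 siRNA stood away from them. At 6 h *APAF1* gave 7.88, 7.81 and 8.16 with FMR4 siRNA, against 8.14, 8.12 and 8.26 with CTRL siRNA. Replicates 1 and 2 of the knockdown were already below the control arrays, and replicate 3 lay among them.

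*PMAIP1* gave 11.70, 11.80 and 11.69 with FMR4 siRNA at 24 h, against 11.37, 11.16 and 11.45 with CTRL siRNA. The groups did not overlap. The difference was 0.40 (SE 0.114, 95% interval 0.17 to 0.64, adjusted p = 0.0367). It needed all but 1 of the 6 arrays: the adjusted p was 0.0728 without CTRL siRNA replicate 1, 0.234 without CTRL siRNA replicate 2, and 0.0771, 0.149 and 0.0644 without FMR4 siRNA replicates 1, 2 and 3. With the plasmids *PMAIP1* read 11.07, 11.13 and 11.12 (FMR4 pcDNA3.1) and 11.19, 11.17 and 11.02 (CTRL pcDNA3.1) at 24 h. Those overlap each other and, through CTRL siRNA replicate 2, the control siRNA.

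*HTRA2* gave 10.28, 10.43 and 10.34 with FMR4 siRNA at 24 h, against 10.16, 10.15 and 10.12 with CTRL siRNA. The groups were apart, but the control arrays of the plasmid arm, at 10.23, 10.22 and 10.22, lay in the gap between them. The difference was 0.21 (SE 0.0583, adjusted p = 0.0386). The call was lost with median centring (adjusted p = 0.0528). It was also lost when replicate 2 (0.208) or 3 (0.0716) of FMR4 siRNA was left out, or any of the CTRL siRNA replicates (0.0823, 0.106 and 0.126 for 1, 2 and 3).

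*CASP6* gave 7.98, 7.89 and 7.76 with FMR4 siRNA at 24 h, against 8.15, 8.16 and 8.11 with CTRL siRNA. The groups did not overlap, and the CTRL pcDNA3.1 arrays of the same time, at 8.19, 8.06 and 7.84, spanned most of the range of both. The difference was -0.27 (SE 0.079, adjusted p = 0.0468). The call was lost when only the 12 arrays of 24 h were fitted (adjusted p = 0.0745) and with array weights (0.0531). Leaving out replicate 2 (0.109) or 3 (0.19) of FMR4 siRNA removed it too, as did leaving out any CTRL siRNA replicate (0.126, 0.155 and 0.0892 for 1, 2 and 3).

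**Figure D1:**
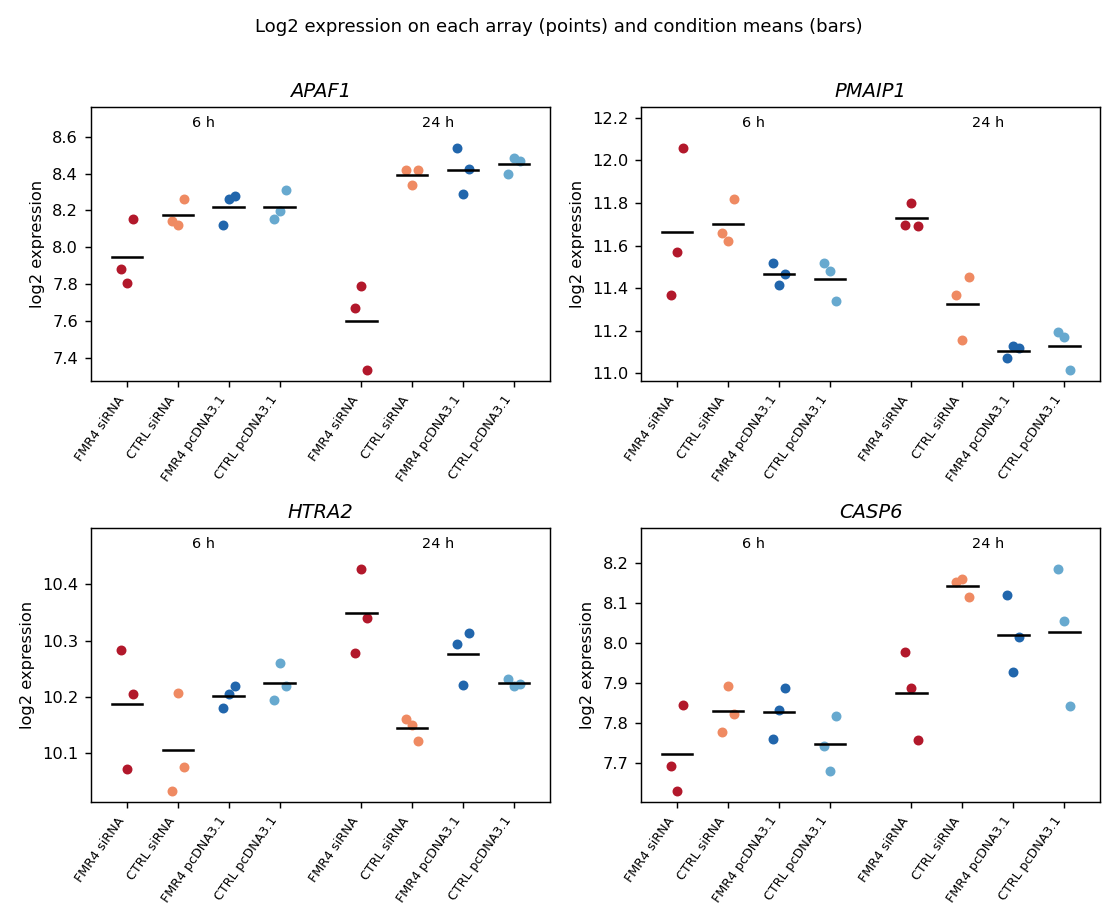
Log2 expression of *APAF1*, *PMAIP1*, *HTRA2* and *CASP6* on each of the 24 arrays (points) with the condition mean (bars), at 6 h (left in each panel) and 24 h (right). With FMR4 siRNA at 24 h *APAF1* lies between 7.34 and 7.79, below every other array, and *PMAIP1* lies between 11.69 and 11.80, above the other arrays of 24 h.

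The upstream sequences of *APAF1* and *PMAIP1*, the genes with the largest fall and the largest rise by the 1 probe set that stands for each gene, are shown with the matches to 2 short motifs: TGACGT, the core bound by CREB and ATF factors, and GGGCGG, the GC box bound by SP1 and its relatives. Both strands were searched, so ACGTCA and CCGCCC are the same motifs read on the other strand, and the motifs do not overlap each other. Each sequence is the 250 bases upstream of the RefSeq transcription start, 5′ to 3′ on the gene's strand, with matches in capitals. *APAF1* lies at chr12:98645040-98645289 and *PMAIP1* at chr18:59899746-59899995 (GRCh38.p14, both on the plus strand).
APAF1: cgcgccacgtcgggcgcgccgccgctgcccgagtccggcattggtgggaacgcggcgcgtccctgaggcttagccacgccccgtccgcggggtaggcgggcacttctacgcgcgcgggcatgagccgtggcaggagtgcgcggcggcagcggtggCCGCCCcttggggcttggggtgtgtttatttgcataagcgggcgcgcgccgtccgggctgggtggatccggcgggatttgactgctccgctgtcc
PMAIP1: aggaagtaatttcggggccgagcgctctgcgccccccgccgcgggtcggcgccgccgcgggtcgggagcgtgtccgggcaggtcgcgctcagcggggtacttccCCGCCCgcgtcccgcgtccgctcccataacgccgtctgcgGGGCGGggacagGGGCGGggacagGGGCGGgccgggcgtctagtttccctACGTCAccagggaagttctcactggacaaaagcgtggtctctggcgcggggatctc
*APAF1* held 0 matches to TGACGT and 1 to GGGCGG, and *PMAIP1* held 1 and 4. *CASP6*, on the minus strand at chr4:109703446-109703695, held 0 and 3. Over 35116 windows of the same length in the RefSeq table, 7.1% held TGACGT and 42.6% held GGGCGG. The table held 55 windows for 31 genes of the set, since a gene can have several, and 6 of the 55 held TGACGT (in *BAD*, *BIRC2*, *CYCS* and *PMAIP1*) and 34 held GGGCGG. A match describes the letters of the window and no bound factor.

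By role, the differences at 24 h of knockdown outside the 4 called genes reached 0.20 for *BCL2*, about the size of the called *HTRA2* (0.21). The pro-survival genes were all above 0 and none was called. *BCL2*, the founding member, was at 0.20 (SE 0.164) and *BCL2L1*, which encodes BCL-XL, at 0.18 (SE 0.109). *MCL1*, the partner of NOXA, was at 0.17 (SE 0.0728) and *BCL2A1* at 0.05 (SE 0.125). These SEs are pooled over all conditions, so the FMR4 siRNA array of 6 h that stood apart enters them. For *BCL2* the SD was 0.61 with FMR4 siRNA at 6 h. At 24 h its SD was 0.16 with FMR4 siRNA and 0.03 with CTRL siRNA. A fit to only the 12 arrays of 24 h, which leaves that array out, called none of these pro-survival genes either. On the arrays *MCL1* read 11.21, 11.19 and 11.14 with FMR4 siRNA, against 11.06, 10.94 and 11.02 with CTRL siRNA, and *BCL2* and *BCL2L1* also had all FMR4 siRNA arrays above the control arrays. The effectors lay close to 0, from -0.06 for *BAX* to 0.05 for *BOK*, with *BAK1* at -0.04. Among the 8 BH3-only genes only *PMAIP1* and *BID*, which links caspase-8 to the mitochondria (0.08), were above 0. The other 6 ranged down to -0.14 for *BMF*, a sensor of cytoskeletal stress, and included *BBC3*, the p53 target PUMA (-0.02), *BCL2L11*, which encodes BIM (-0.06), *BAD* (-0.07), *BIK* (-0.06) and *HRK* (0.00).

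Beside *APAF1* and *HTRA2*, the mitochondrial group held cytochrome c, *CYCS*, at 0.12 (SE 0.0605, with the groups apart), and *DIABLO*, *ENDOG* and *AIFM1* between -0.07 and -0.01. The inhibitors of apoptosis were above 0, with *XIAP*, which binds executioner caspases, at 0.08, *BIRC6* at 0.09 and *BIRC2*, a ubiquitin ligase of TNF receptor signalling, at 0.15, and none was called. Of the caspases, *CASP9*, the initiator that APAF1 activates, was at -0.19 (SE 0.0957, adjusted p = 0.353), and *CASP2*, *CASP8* and *CASP10* lay between 0.00 and 0.03. Of the receptors and adaptors, *FAS* was at -0.17 (SE 0.0591, adjusted p = 0.113) and its adaptor *FADD* at -0.19 (SE 0.0691, adjusted p = 0.146), each with all FMR4 siRNA arrays below the control arrays. The TRAIL receptors *TNFRSF10A* and *TNFRSF10B* were at -0.05 and 0.13, and *TNFRSF1A* and *TRADD* were within 0.01 of 0. Of the nuclease and its inhibitor, *DFFB* was at 0.20 (SE 0.0747, adjusted p = 0.15) and *DFFA* at 0.02. In all, 8 of the 38 genes had an unadjusted p under 0.05 (16.4% of all genes did), and 11 had arrays that did not overlap between the groups (28.9%, against 22.2% of all genes), 7 higher (12.6% of all genes) and 4 lower (9.55%) with FMR4 siRNA.

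*CFLAR*, the inhibitor of caspase-8 activation, was the 1 gene of the set with 2 single-gene probe sets, and they differed. The brighter probe set, used in all counts, read 8.11, 8.17 and 7.79 with FMR4 siRNA at 24 h, against 7.91, 7.79 and 7.91 with CTRL siRNA, which overlap (difference 0.15, SE 0.0852, adjusted p = 0.418). The other read 7.39, 7.47 and 7.03 with FMR4 siRNA, against 7.02, 6.64 and 6.71 with CTRL siRNA, which do not overlap (0.50, SE 0.119, adjusted p = 0.0109). The mean over both was also called (0.33, adjusted p = 0.0216), as was the brighter probe set without FMR4 siRNA replicate 3 (0.27, adjusted p = 0.0461). For the second probe set CTRL siRNA also stood away from the plasmids: the level was 0.42 higher with CTRL pcDNA3.1 than with CTRL siRNA at 24 h (adjusted p = 0.0469). Against the 6 plasmid arrays of that time the level differed by 0.08 with FMR4 siRNA (adjusted p = 0.705) and by -0.43 with CTRL siRNA (adjusted p = 0.013). *CFLAR* makes long and short protein isoforms. Which transcripts each probe set reads was not tested.

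**Figure D2:**
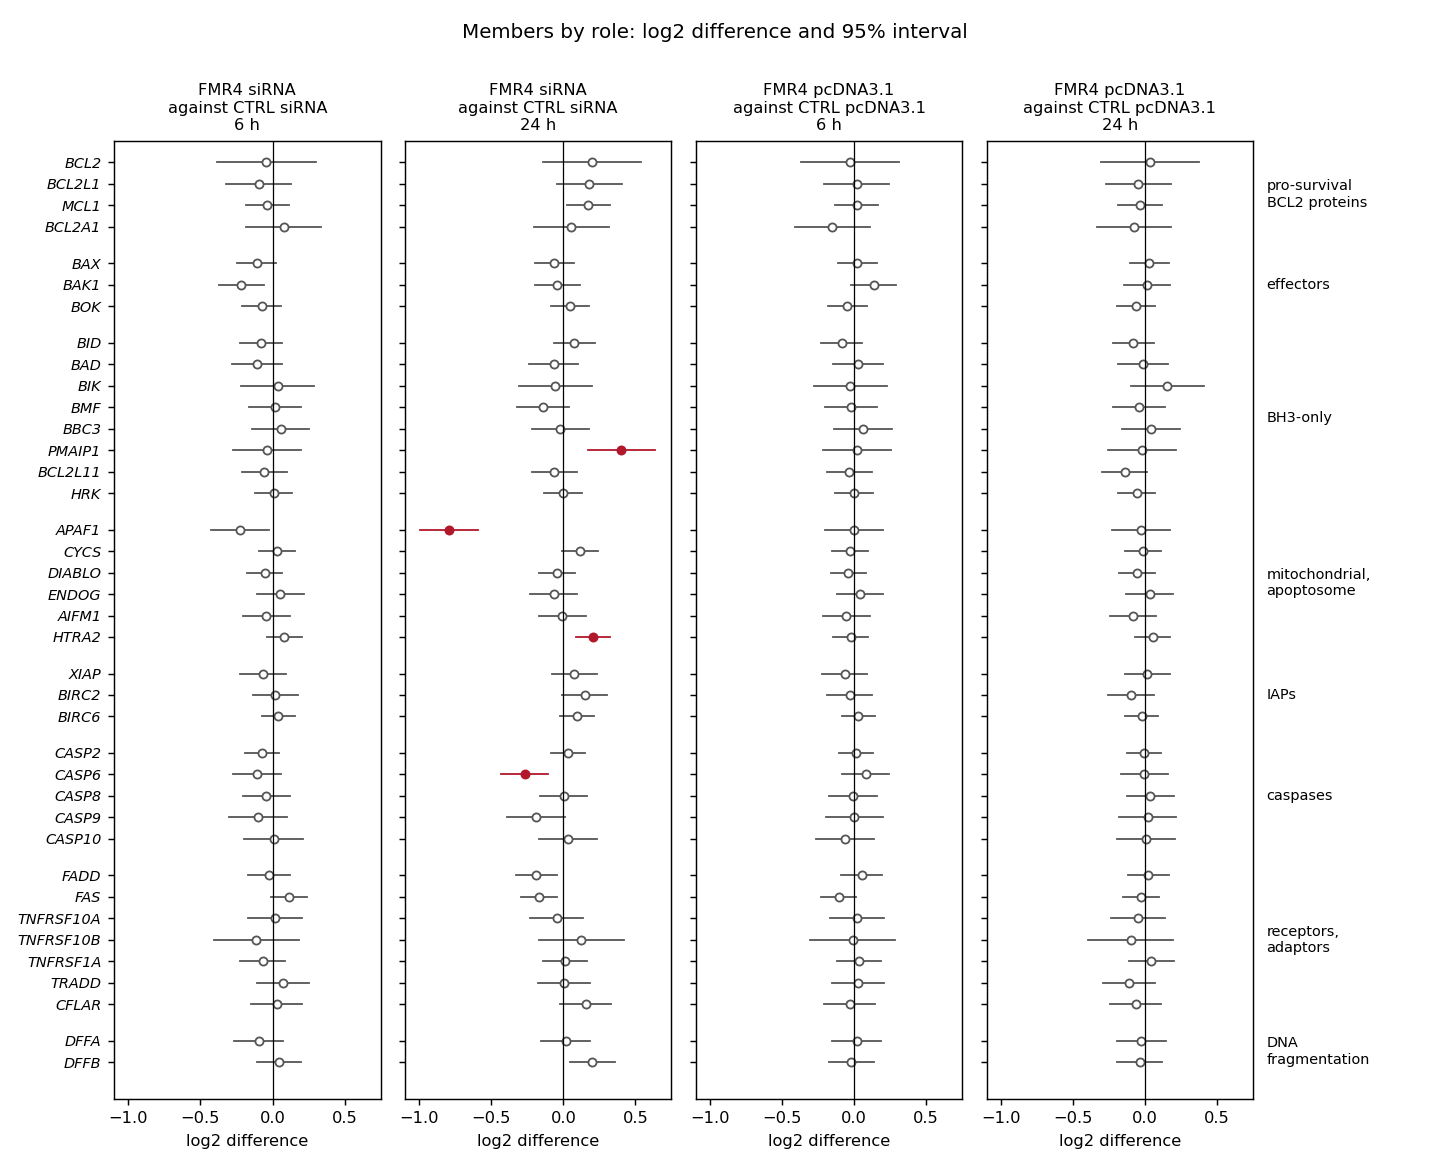
Log2 difference from the matched control (points) with its 95% interval (bars) for the 38 genes, ordered by role, in the 4 comparisons of an *FMR4* condition with its control. Filled red points are called, and they occur only with FMR4 siRNA at 24 h, for *PMAIP1* (0.40), *APAF1* (-0.79), *HTRA2* (0.21) and *CASP6* (-0.27).

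At 6 h of knockdown 0 of the 38 genes were called by limma (0.0598% of all genes were). At an unadjusted p under 0.05 there were 2 (3.9% of all genes), both lower: *BAK1*, a pore-forming effector, at -0.22 and *APAF1* at -0.23. *BAK1* gave 9.52, 9.33 and 9.29 with FMR4 siRNA, against 9.50, 9.74 and 9.56 with CTRL siRNA, so that the groups overlapped. No gene of the set had groups that did not overlap (5.6% of all genes did). The 38 differences ran from -0.23 to 0.11 and their 95% intervals reached from -0.43 to 0.34.

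Replicate 3 of FMR4 siRNA bears on this result. Without it 4 genes of the set were called at 6 h, all lower with FMR4 siRNA: *BCL2* (-0.39, SE 0.0828, adjusted p = 0.00895), *BCL2L1* (-0.28, SE 0.0813, adjusted p = 0.049), *TNFRSF10B* (-0.39, SE 0.0887, adjusted p = 0.0134) and *DFFA*, the inhibitor of DFFB (-0.25, SE 0.0554, adjusted p = 0.0114). Neither *APAF1* (-0.33, SE 0.0967, adjusted p = 0.0524) nor *BAK1* (-0.17, adjusted p = 0.261) was called without that array. Over all genes the count of calls was 854 without that array (4.64%, 727 lower and 127 higher) and 11 with it. *BCL2* shows the pattern, with 7.61, 7.86 and 8.77 for FMR4 siRNA, against 8.06, 8.07 and 8.23 for CTRL siRNA. Replicates 1 and 2 were below the control arrays and replicate 3 was above them. *TNFRSF10B* behaved in the same way, at 9.82, 9.92 and 10.70 with FMR4 siRNA, against 10.25, 10.15 and 10.38 with CTRL siRNA, as did *DFFA*, at 10.89, 10.94 and 11.37 against 11.18, 11.09 and 11.21. *BCL2L1* gave 9.53, 9.54 and 10.10 with FMR4 siRNA, against 9.79, 9.72 and 9.94 with CTRL siRNA. Replicate 3 of CTRL siRNA, which was kept, also gave the highest control value in these 4 genes. Over all genes the deviations of the FMR4 siRNA and CTRL siRNA replicate 3 from their group means correlated at 0.475. Whether the deviation of FMR4 siRNA replicate 3 came from the cells or from the array was not tested.

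**Figure D3:**
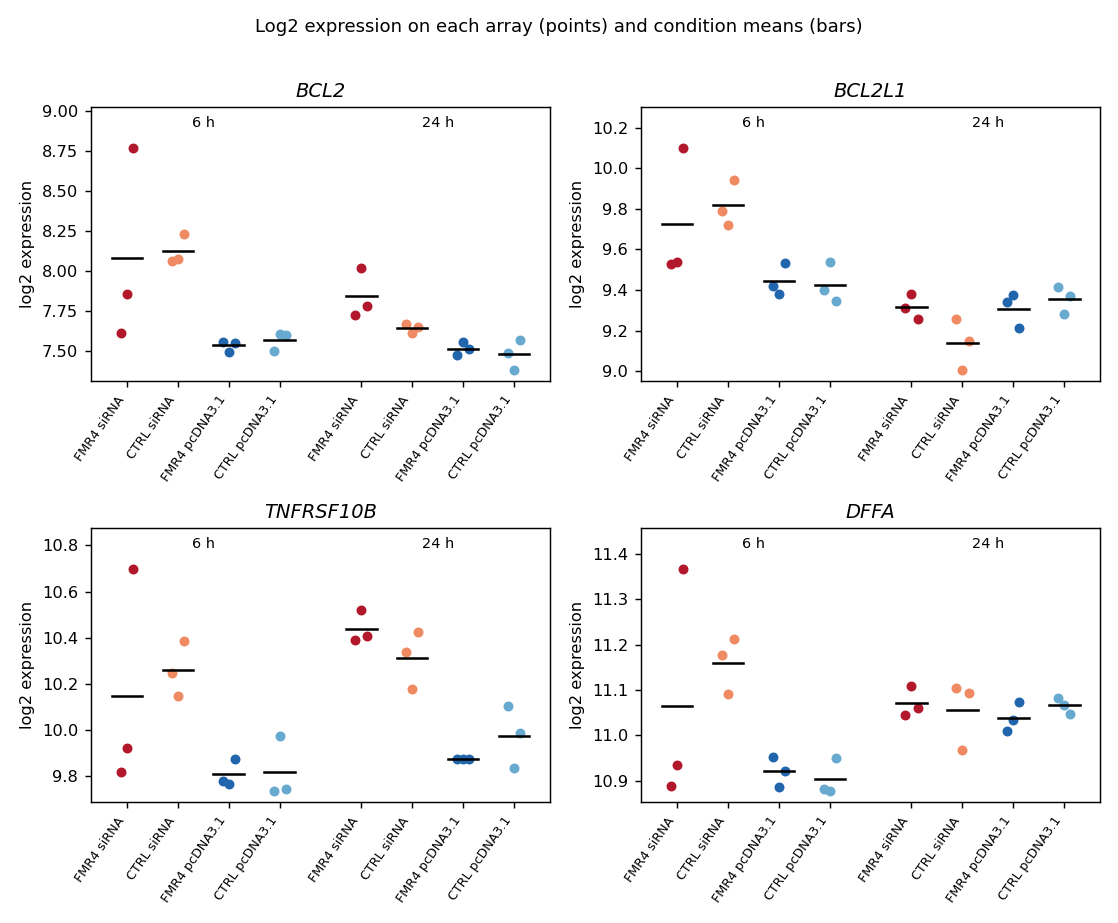
Log2 expression of *BCL2*, *BCL2L1*, *TNFRSF10B* and *DFFA* on each array (points, replicates 1 to 3 from left to right in each condition) with the condition mean (bars). With FMR4 siRNA at 6 h replicate 3 lies above the other arrays of its panel (8.77 for *BCL2*), and replicates 1 and 2 lie below the CTRL siRNA arrays.

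Overexpression gave no call at either time. With FMR4 pcDNA3.1 at 6 h 0 of 38 genes were called (0% of all genes) and 0 had an unadjusted p under 0.05 (2.02% of all genes). The differences lay between -0.15 for *BCL2A1* and 0.13 for *BAK1*. Only *BIRC6* had groups that did not overlap (2.63% of the set, against 7.63% of all genes). At 24 h 0 were called by limma (0% of all genes) and 0 had an unadjusted p under 0.05 (3.27% of all genes), and the differences lay between -0.14 for *BCL2L11* and 0.16 for *BIK*, a BH3-only protein of the endoplasmic reticulum. *BCL2L11* gave 9.03, 9.07 and 8.96 with FMR4 pcDNA3.1, against 9.24, 9.17 and 9.08 with CTRL pcDNA3.1. These groups were just apart, as were those of *BIRC2*, *TRADD* and *AIFM1*, with the FMR4 pcDNA3.1 arrays below in all 4 (10.5% of the set, against 12% of all genes, 9.45% in that direction), and the adjusted p of *BCL2L11* was 0.999. The 95% intervals of the 38 genes stayed within -0.41 and 0.31 at 6 h, and within -0.40 and 0.41 at 24 h. For *APAF1* the interval at 24 h was -0.23 to 0.17.

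The change of the *FMR4* effects between times, and between arms, was tested directly. The knockdown effect at 24 h minus that at 6 h was called for 1 of 38 genes, *APAF1* (1.19% of all genes), at -0.56 (SE 0.137, adjusted p = 0.0451). With it, *PMAIP1* (0.44, adjusted p = 0.262) and *FAS* (-0.28, adjusted p = 0.126) had unadjusted p values under 0.05 (3 of 38 genes, against 11.3% of all genes) and were not called. The *APAF1* call was lost without any 1 of the CTRL siRNA arrays of 6 h (adjusted p = 0.108, 0.112 and 0.0534 for replicates 1, 2 and 3) or of 24 h (0.0956, 0.0712 and 0.104), and without FMR4 siRNA replicate 1 (0.0552) or 3 (0.104) of 24 h. Without replicate 3 of FMR4 siRNA at 6 h, 8 genes were called: *BCL2* (0.58), *BCL2L1* (0.46), *MCL1* (0.32), *PMAIP1* (0.64), *TNFRSF10B* (0.51), *DFFA* (0.26), *APAF1* (-0.46) and *FAS* (-0.30), with adjusted p values between 0.00142 and 0.0395. Over all genes that count was 1529 (8.31%, 1149 higher and 380 lower), against 218 with the array.

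The overexpression effect minus the knockdown effect at 24 h was also called for 1 of 38, *APAF1* (2.13% of all genes), at 0.76 (SE 0.137, adjusted p = 0.00262). It remained called under all 20 alternatives, between 0.63 and 0.85. The *APAF1* difference is the fall with FMR4 siRNA, since the overexpression effect was -0.03. At 6 h limma called 0 of 38 genes between the arms (0% of all genes), with 2 of 38 under an unadjusted p of 0.05 (3.16% of all genes). For the change of the overexpression effect with time it called 0 as well (0% of all genes), with 0 of 38 under an unadjusted p of 0.05 (1.85% of all genes). Since nucleic acid and reagent both differ between the arms, their parts in a difference between arms cannot be told apart.

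The control groups show how far these genes differed between the kinds of transfection. At 6 h 2 of 38 genes were called between CTRL pcDNA3.1 and CTRL siRNA (5.26%, against 3.31% of all genes), both lower with CTRL pcDNA3.1 (1.7% of all genes). *CASP2*, a caspase linked to DNA damage and centrosome number, gave 11.52, 11.49 and 11.53 with CTRL pcDNA3.1, against 11.73, 11.74 and 11.76 with CTRL siRNA, and *BCL2L1* gave 9.40, 9.54 and 9.34 against 9.79, 9.72 and 9.94. The groups were apart for both genes. The differences were -0.23 for *CASP2* (SE 0.0569, adjusted p = 0.0329) and -0.39 for *BCL2L1* (SE 0.109, adjusted p = 0.0491). Both calls were lost when any 1 of the 6 arrays was left out (adjusted p between 0.0527 and 0.14 for *CASP2* and between 0.0527 and 0.209 for *BCL2L1*) and when only the 12 arrays of 6 h were fitted (0.177 and 0.188). Several genes lay just short of the threshold, namely *CFLAR* (0.29, adjusted p = 0.0595), *BCL2* (-0.55, adjusted p = 0.0598), *DFFA* (-0.26, adjusted p = 0.0755) and *TNFRSF10B* (-0.44, adjusted p = 0.0769). *BCL2* gave 7.50, 7.60 and 7.60 with CTRL pcDNA3.1, against 8.06, 8.07 and 8.23 with CTRL siRNA. In 16 genes the 2 control groups did not overlap (42.1%, against 31.1% of all genes), 12 of them lower with CTRL pcDNA3.1 (16.3% of all genes).

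At 24 h 3 of 38 genes were called between the controls (7.89%, against 4.49% of all genes). *BAK1* was lower with CTRL pcDNA3.1 (9.67, 9.55 and 9.42, against 9.83, 9.85 and 9.74 with CTRL siRNA; difference -0.26, adjusted p = 0.0488). *BIRC2* was higher (9.79, 9.94 and 9.79, against 9.57, 9.53 and 9.63 with CTRL siRNA), as was *DFFB* (9.05, 8.90 and 8.91, against 8.65, 8.71 and 8.73 with CTRL siRNA). In each of the 3 genes the groups were apart. Both rises were of 0.26 (adjusted p = 0.0488 and 0.0493). All 3 calls were fragile: the adjusted p reached 0.226 for *BAK1*, 0.266 for *BIRC2* and 0.184 for *DFFB* when 1 of the 6 arrays was left out, and at most 1 of the 38 genes was called without any 1 of them. *BCL2L11* (-0.22, adjusted p = 0.114) and *TNFRSF10B* (-0.34, adjusted p = 0.215) had all CTRL pcDNA3.1 arrays below those of CTRL siRNA and were not called. Some alternative settings did call them. *TNFRSF10B* was called when only the 12 arrays of 24 h were fitted (adjusted p = 0.0167) and with array weights (0.00665). *BCL2L11* was called with array weights (0.0101) and with median centring (0.041).

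A comparison of each siRNA group with the 6 plasmid arrays of 24 h, chosen after the values were seen, sets the FMR4 siRNA and the control siRNA against the same arrays. These comparisons share the plasmid arrays, so their values are given side by side. With FMR4 siRNA 7 of 38 genes differed from the plasmid arrays (18.4%, against 12.4% of all genes), and with CTRL siRNA 3 did (7.89%, against 6.91% of all genes). *APAF1* differed by -0.83 with FMR4 siRNA (adjusted p = 6.32e-07) and by -0.04 with CTRL siRNA. *PMAIP1* differed by 0.61 with FMR4 siRNA (adjusted p = 0.000216) and by 0.21 with CTRL siRNA (adjusted p = 0.245). *MCL1* (0.29, adjusted p = 0.00372) and *FADD* (-0.21, adjusted p = 0.0202) were called with FMR4 siRNA and stood at 0.11 and -0.03 with CTRL siRNA. *BCL2L11* and *BAK1* were called higher in both siRNA groups, at 0.22 and 0.22 with FMR4 siRNA and at 0.29 and 0.26 with CTRL siRNA. *TNFRSF10B* differed by 0.51 with FMR4 siRNA (adjusted p = 0.0068) and by 0.39 with CTRL siRNA (adjusted p = 0.0595). *DFFB* was lower only in the call for CTRL siRNA (-0.24, adjusted p = 0.0244), and stood at -0.04 with FMR4 siRNA. *CASP6* and *HTRA2* were called in neither: *CASP6* stood at -0.15 with FMR4 siRNA and 0.12 with CTRL siRNA, and *HTRA2* at 0.10 and -0.11.

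Between 6 and 24 h 14 of the 38 genes were called in at least 1 of the 4 conditions (30.6% of all genes were), and *FAS* and *CASP10* were called higher at 24 h in all 4 (0.968% of all genes were). *FAS*, the receptor of FAS ligand, gave 7.75, 7.75 and 7.71 at 24 h with CTRL siRNA, against 7.16, 7.30 and 7.37 at 6 h. The times were apart, by 0.46 (SE 0.0591, adjusted p = 3.51e-05). The difference was 0.40 with FMR4 pcDNA3.1 (adjusted p = 0.000326), 0.32 with CTRL pcDNA3.1 (adjusted p = 0.00219) and 0.17 with FMR4 siRNA (adjusted p = 0.0478). With FMR4 siRNA *FAS* read 7.63, 7.53 and 7.54 at 24 h, against 7.45, 7.36 and 7.37 at 6 h, and that call was lost without any 1 of these arrays but replicate 1 of 6 h (adjusted p up to 0.172). It was also lost with trend and robust moderation (0.0712), quantile normalization (0.0505) and median centring (0.0546). *CASP10* differed by 0.34 to 0.50 in the 4 conditions, but at levels below that of mostly silent genes, for instance 5.54, 5.68 and 5.68 at 24 h with FMR4 pcDNA3.1, against 5.11, 5.20 and 5.07 at 6 h.

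With CTRL siRNA 9 of 38 genes changed with time (23.7%, against 18.6% of all genes). The pro-survival genes *BCL2L1* (-0.68, SE 0.109, adjusted p = 0.000227) and *BCL2* (-0.48, SE 0.164, adjusted p = 0.0471), the BH3-only gene *PMAIP1* (-0.37, SE 0.114, adjusted p = 0.0253) and *CYCS* (-0.27, SE 0.0605, adjusted p = 0.00349) fell. *FAS*, *CFLAR* (0.39, SE 0.0852, adjusted p = 0.00293), *CASP6* (0.31, SE 0.079, adjusted p = 0.0084), *CASP10* (0.34, SE 0.0974, adjusted p = 0.019) and *CASP9* (0.31, SE 0.0957, adjusted p = 0.0281) rose. *BCL2L1* gave 9.26, 9.01 and 9.15 at 24 h, against 9.79, 9.72 and 9.94 at 6 h, and *CYCS* gave 9.66, 9.76 and 9.59 against 10.01, 9.85 and 9.97. In both genes all arrays of 24 h lay below those of 6 h. The *BCL2* call was lost without any 1 of the 6 arrays (adjusted p between 0.0716 and 0.169), with trend and robust moderation (0.0564) and with median centring (0.0536), and that of *CASP9* without replicate 1 (0.0844) or 3 (0.16) of 6 h or replicate 1 (0.107) or 2 (0.0855) of 24 h. That of *PMAIP1* was lost without replicate 1 (0.051) or 3 (0.127) of 6 h or replicate 1 (0.0514) or 2 (0.128) of 24 h, and that of *CASP10* without replicate 2 of either time (0.0675 for 6 h and 0.0785 for 24 h). The second *CFLAR* probe set stood at 0.12 and was not called (adjusted p = 0.565).

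With FMR4 siRNA 9 of 38 genes changed with time as well (23.7%, against 16.7% of all genes). *CFLAR* (0.52, adjusted p = 0.000333), *BAK1* (0.39, adjusted p = 0.0013), *CASP10* (0.36, adjusted p = 0.0133), *AIFM1*, which carries out caspase-independent death after release (0.25, adjusted p = 0.0302), *BAX* (0.22, adjusted p = 0.0234) and *FAS* rose. *BCL2L1* (-0.41, adjusted p = 0.013), *APAF1* (-0.35, adjusted p = 0.0173) and *CYCS* (-0.18, adjusted p = 0.0435) fell. *BAK1* gave 9.73, 9.80 and 9.77 at 24 h, against 9.52, 9.33 and 9.29 at 6 h, with no overlap, whereas the *AIFM1* arrays overlapped. Replicate 3 of 6 h bears on most of these calls. Without it 7 of the 9 were lost: *BCL2L1* (adjusted p = 0.0823), *APAF1* (0.104), *CYCS* (0.113), *CASP10* (0.0731), *BAX* (0.063), *AIFM1* (0.191) and *FAS* (0.108). *CFLAR* and *BAK1* were kept, and 3 other genes were called higher, *TNFRSF10B* (0.57, adjusted p = 0.000316), *PMAIP1* (0.26, adjusted p = 0.0451) and *TNFRSF1A* (0.20, adjusted p = 0.0396). Single other arrays decided calls too: *APAF1* was lost without replicate 3 of 24 h (0.112), *CASP10* without replicate 1 (0.0594) or 2 (0.0609) of 24 h, and *CYCS* without 5 of the 6 arrays (up to 0.127) or with array weights (0.058). *BAX* was lost without replicate 2 of 6 h (0.0945) or replicate 3 of 24 h (0.121), and *AIFM1* without replicate 1 (0.106) or 2 (0.133) of 24 h. With quantile normalization *BAX* (0.0792) and *AIFM1* (0.0514) were also not called. *APAF1* stood at 0.22 with CTRL siRNA, 0.20 with FMR4 pcDNA3.1 and 0.23 with CTRL pcDNA3.1, none of them called. With array weights its difference with FMR4 siRNA was -0.19 and not called (adjusted p = 0.129), and those with CTRL siRNA (0.24, adjusted p = 0.0194) and CTRL pcDNA3.1 (0.25, adjusted p = 0.0204) were called. *PMAIP1* stood at 0.07 with FMR4 siRNA with all arrays, against -0.37 with CTRL siRNA.

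With the plasmids fewer genes changed with time: 3 of 38 with FMR4 pcDNA3.1 (7.89%, against 6.33% of all genes) and 4 with CTRL pcDNA3.1 (10.5%, against 5.76% of all genes). Both conditions called *FAS*, *CASP10* and *HRK*, a BH3-only gene expressed mainly in the nervous system. *HRK* gave 10.25, 10.39 and 10.47 at 24 h with FMR4 pcDNA3.1, against 10.03, 10.09 and 9.92 at 6 h, and 10.33, 10.49 and 10.46 at 24 h with CTRL pcDNA3.1, against 9.99, 10.05 and 10.02 at 6 h. The times were apart in both conditions. The differences were 0.35 (adjusted p = 0.00196) with FMR4 pcDNA3.1 and 0.41 (adjusted p = 0.000468) with CTRL pcDNA3.1, against 0.07 with FMR4 siRNA and 0.08 with CTRL siRNA. *CASP6* was the other call with CTRL pcDNA3.1 (0.28, adjusted p = 0.0371), lost without replicate 1 (0.119) or 2 (0.126) of 6 h or replicate 1 (0.173) or 2 (0.126) of 24 h, with quantile normalization (0.0626) and with median centring (0.0894). *CASP10* with CTRL pcDNA3.1 was lost without replicate 1 of 6 h (0.0903) or replicate 2 of 24 h (0.0834). The 3 calls with FMR4 pcDNA3.1 were kept in every alternative. The change with time under CTRL pcDNA3.1 minus that under CTRL siRNA, a comparison added after the values were seen, called 0 of 38 genes by limma (1.12% of all genes), with 6 of 38 under an unadjusted p of 0.05 (16.9% of all genes). *BCL2L1* came closest (0.61, SE 0.153, adjusted p = 0.0532), followed by *HRK* (0.33, adjusted p = 0.0739).

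**Figure D4:**
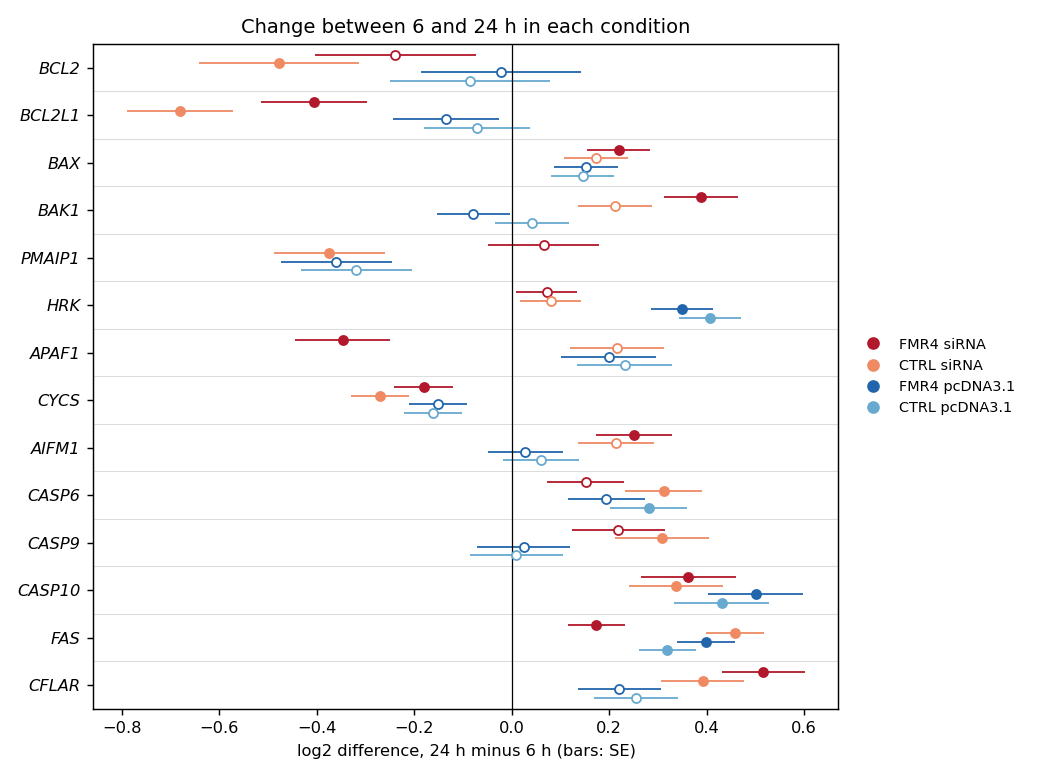
Log2 difference between 24 and 6 h (24 h minus 6 h, points) with its SE (bars) in each of the 4 conditions, for the 14 genes called in at least 1 of them. Filled points are called. *FAS* and *CASP10* are filled in all 4 conditions, *HRK* only with the plasmids, and *APAF1* lies below 0 only with FMR4 siRNA (-0.35).

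Neighbouring genes of cell death were counted from lists chosen with earlier results of these data known. A direction shared within a list is therefore described and was not tested. Of 48 further apoptosis and death genes 42 were measured, among them *BIRC5*, which encodes survivin, and *RIPK3* and *MLKL*, which carry out necroptosis. None was called in any of the 4 comparisons of an *FMR4* condition with its control. Of all genes 5.89% were called at 24 h of knockdown, 0.0598% at 6 h, and 0% in both overexpression comparisons. At 24 h of knockdown 5 of the 42 had an unadjusted p under 0.05 (16.4% of all genes did), and their median difference was 0.013 (all genes, 0.0039). Of 22 p53 targets outside the set 19 were measured. In these 4 comparisons, with the shares of all genes given above, 0 were called. At 24 h of knockdown 6 of the 19 had an unadjusted p under 0.05 (16.4% of all genes). A list of 15 genes, here called ATF4 and CHOP, covered the endoplasmic reticulum stress response more widely, with *ERN1*, *XBP1* and *HSPA5* among them. The ATF4 and CHOP pathway itself answers endoplasmic reticulum and amino acid stress and has *PMAIP1* and *TNFRSF10B* among its known targets. All 15 genes of the list were measured. At 24 h of knockdown 1 was called (5.89% of all genes were), *CEBPB*, a transcription factor that pairs with CHOP (0.33, SE 0.0748, adjusted p = 0.00848). All 15 were above 0, with a median of 0.20 (all genes, 0.0039), and 7 had an unadjusted p under 0.05 (16.4% of all genes). At 24 h of overexpression 0 of the 15 were called by limma (0% of all genes) and 0 had an unadjusted p under 0.05 (3.27% of all genes).

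Over time 12 of the 42 death genes outside the set were called with FMR4 siRNA (7 higher and 5 lower, 28.6%, against 16.7% of all genes) and 7 with CTRL siRNA (4 higher and 3 lower, 16.7%, against 18.6% of all genes). With FMR4 pcDNA3.1 3 were called (7.14%, against 6.33% of all genes) and with CTRL pcDNA3.1 4 (9.52%, against 5.76% of all genes). The decoy receptor *TNFRSF10D* fell by 1.15 and the death receptor *TNFRSF21* by 0.53 with CTRL siRNA, and *TNFRSF21* was called lower in all 4 conditions (-0.62 with FMR4 pcDNA3.1 and -0.60 with CTRL pcDNA3.1). Of the 19 p53 targets 5 were called with FMR4 siRNA, all higher (26.3%, against 16.7% of all genes), and 8 with CTRL siRNA, 6 higher and 2 lower (42.1%, against 18.6% of all genes). The 2 lower were *GDF15* (-0.32), a secreted stress factor, and *RRM2B* (-0.32), a ribonucleotide reductase subunit. With FMR4 pcDNA3.1 5 were called (26.3%, against 6.33% of all genes) and with CTRL pcDNA3.1 6 (31.6%, against 5.76% of all genes), all higher. *DDB2*, *SESN1* and *SESN2* were called higher at 24 h in all 4 conditions, *DDB2* by 0.43 with FMR4 siRNA, 0.47 with CTRL siRNA, 1.05 with FMR4 pcDNA3.1 and 0.96 with CTRL pcDNA3.1. *SESN2* belongs to both the p53 and the ATF4 and CHOP lists and is counted in each. Over all genes 2262 were called higher and 805 lower over time with FMR4 siRNA. The list counts with FMR4 siRNA include replicate 3 of 6 h and were not repeated without it. Of the 15 ATF4 and CHOP genes 12 were called at 24 h with FMR4 siRNA, all higher (80.0%, against 16.7% of all genes), and 8 with CTRL siRNA, 7 higher and 1 lower (53.3%, against 18.6% of all genes). With FMR4 pcDNA3.1 4 were called, 3 higher and 1 lower (26.7%, against 6.33% of all genes), and with CTRL pcDNA3.1 5, 3 higher and 2 lower (33.3%, against 5.76% of all genes). *HSPA5* was called lower with both plasmids (-0.37 with FMR4 pcDNA3.1 and -0.27 with CTRL pcDNA3.1) and *ATF3* with CTRL pcDNA3.1 (-0.56). Between the controls at 24 h 4 of these 15 were lower with CTRL pcDNA3.1 (26.7%, against 4.49% of all genes called in either direction): *DDIT3*, which encodes CHOP (-0.41), *ATF3* (-0.68), *HSPA5* (-0.29) and *HERPUD1* (-0.57).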

How the data were processed

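HEK293T cells were profiled on 24 Affymetrix arrays, named Human Gene 1.0 ST in the labels and version 2.0 in the study's methods. The deposited log2 values were made by the authors by background subtraction and GC-RMA normalization, with the tool GCRMA, whose version is not given in the sources used here. They lie between 2.62 and 14.5 and were used as deposited. The scanner files were not used here. Probe sets took their genes from the platform annotation, with 27 symbols updated, so that 21214 of 33297 probe sets had a gene, 19460 of them a single symbol. Each of the 18395 genes was represented by its single-symbol probe set of highest mean.

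A single limma model (limma 3.58.1 in R 4.3.3, lmFit and eBayes) with 1 mean per condition was fitted to all arrays, leaving 16 residual degrees of freedom. Tests were two-sided, with Benjamini-Hochberg adjustment over the 21214 probe sets within each comparison and a threshold of 0.05, and were checked on simulated data. The members and lists were chosen with earlier results of these data known. Values on every array are given for genes called in a comparison of an *FMR4* condition with its control and for the 4 of lowest adjusted p between the controls and over time. Those of *MCL1*, *TNFRSF10B*, *DFFA* and the second *CFLAR* probe set, and the comparisons with both plasmid groups and of the controls' changes with time, were chosen after the values were seen. Alternatives were trend and robust moderation, array weights, a separate fit of the 12 arrays at each time, quantile normalization, median centring, a filter on dim probe sets, the mean over probe sets, the replicate number as a block, and each array left out in turn. Promoter sequences came from RefSeq (GRCh38.p14), where 31 genes matched. Plots used matplotlib 3.10.9 (Python 3.11.15).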

Additional observations from a re-analysis of the deposited data

Results flagged for a closer look

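With all arrays used, 1 gene of the set, *APAF1*, differed in its response between the study's conditions. Its knockdown effect at 24 h minus that at 6 h was -0.56 (SE 0.137, adjusted p = 0.0451 in limma), from differences of -0.79 at 24 h and -0.23 at 6 h. This call was lost under 9 of 19 alternatives (adjusted p up to 0.112). Without replicate 3 of FMR4 siRNA at 6 h it was kept and 7 other genes were called as well, 8 in all (8.31% of all genes were called). Its overexpression effect minus its knockdown effect at 24 h was 0.76 (SE 0.137, adjusted p = 0.00262), from differences of -0.03 with FMR4 pcDNA3.1 and -0.79 with FMR4 siRNA. That call was kept under all 20 alternatives.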

How the results depend on the processing

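For each of the 38 genes, in the comparisons that called it under some setting, the alternatives kept the side of the threshold in 1074 cases, gained a call in 85 and lost one in 125. With array weights the genes called increased to 15 (2 in the reported fit) between CTRL pcDNA3.1 and CTRL siRNA at 6 h and to 6 (3) at 24 h, to 3 (1) for the knockdown effect at 24 h minus that at 6 h, to 2 (1) for the overexpression minus the knockdown effect at 24 h, and over time to 14 (9) with FMR4 siRNA, 14 (9) with CTRL siRNA, 7 (3) with FMR4 pcDNA3.1 and 10 (4) with CTRL pcDNA3.1. The share of all genes called increased alongside: to 17.7% (3.31%) and 10.3% (4.49%) between the controls, to 5.34% (1.19%) for the change of the knockdown effect, to 5.06% (2.13%) between arms, and over time to 22.6% (16.7%), 27.9% (18.6%), 16.4% (6.33%) and 15.9% (5.76%) in the order given. Between the controls at 6 h the count was 0 in a fit to 12 arrays (0.0435% of all genes), 4 after quantile normalization (4.63%) and 1 after median centring (3.25%). At 24 h of knockdown array weights lost *CASP6* and kept *PMAIP1*, *APAF1* and *HTRA2*, beside 9% of all genes (5.89% in the reported fit). Over all genes, 1083 were called at 24 h of knockdown, 1655 with array weights and 653 without CTRL siRNA replicate 2. Removal of dim probe sets left 17727 and dropped *BCL2A1* and *CASP10*.

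With 1 array left out at a time, the genes called ranged from 0 to 4 for the knockdown at 6 h, from 1 to 3 at 24 h and from 0 to 8 for their difference. The share of all genes called ranged from 0.0272% to 4.64%, from 3.55% to 5.44% and from 0.68% to 8.31%, in that order. The genes of the set called were 0 in every such fit for both overexpression comparisons, their difference between times, and the difference between arms at 6 h, and 1 in every such fit for that at 24 h. Of all genes 0% were called in each overexpression fit, 0% to 1% between arms at 6 h and 1.43% to 2.82% at 24 h. Between the controls 0 genes of the set were called in every fit at 6 h and 0 to 1 at 24 h. The shares of all genes there were 0.0489% to 2.67% at 6 h and 2% to 3.66% at 24 h. Over time the genes of the set called ranged from 5 to 14 with FMR4 siRNA (14 without replicate 1 of 6 h, 5 without replicate 3 of 6 h or replicate 2 of 24 h), from 5 to 8 with CTRL siRNA, from 2 to 4 with CTRL pcDNA3.1, and were 3 throughout with FMR4 pcDNA3.1. In the FMR4 siRNA fits named, 24.4%, 13.3% and 10% of all genes were called. The shares ranged from 10.1% to 17.8% with CTRL siRNA, from 2.12% to 4.4% with CTRL pcDNA3.1 and from 2.42% to 4.65% with FMR4 pcDNA3.1.

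The replicate numbers were not used as pairs: of 18 correlations between the deviations of same-numbered arrays, from -0.379 to 0.475, 5 exceeded 0.1, and in 0 of 6 comparisons did all 3. The highest, 0.475, was between replicate 3 of FMR4 siRNA and replicate 3 of CTRL siRNA at 6 h. With the replicate number as a block, 3 genes were called at 24 h of knockdown (4 without), with *HTRA2* lost (adjusted p = 0.0811), 0 between the controls at 24 h (3 without), and 0 for the change of the knockdown effect when blocked within an arm (1 without, *APAF1* at an adjusted p of 0.0912). The shares of all genes called were 5.52%, 3.93% and 0.902% in that order, against 5.89%, 4.49% and 1.19% without the block. Over time the block within an arm removed the calls of *FAS* (0.0821) and *CYCS* (0.0686) with FMR4 siRNA and of *CASP6* (0.0591) with CTRL pcDNA3.1. It added *AIFM1* with CTRL siRNA (0.0279) and *PMAIP1* with FMR4 pcDNA3.1 (0.0415). The block within a time added *BCL2* between the controls at 6 h (0.0489).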
